A study of Oryctolagus cuniculus with 6 samples.

Results

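Matrix metalloproteinases and their tissue inhibitors, the TIMPs, were followed in smooth muscle cells of the rabbit basilar artery 5 days after flow through the vessel was raised. The set held 10 genes, the proteases MMP1, MMP2, MMP3, MMP9, MMP12 and MMP14 and the inhibitors TIMP1, TIMP2, TIMP3 and TIMP4. A probe belonged to the set when the array file gave a member as its gene name or named that enzyme or inhibitor in its description. This found 22 of the 43603 probes of the array, for 9 of the 10 genes, and TIMP2 was not analysed here because no probe carried its name. The TIMP1 probe was found by its description and the other 21 by gene name.

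Female New Zealand White rabbits had both common carotid arteries tied (ligated, 3 arrays) or only exposed (sham, 3 arrays). Cells were freed from the artery with elastase and collagenase for 45 min, and total RNA was read on 1-colour oligonucleotide arrays. The labels give n = 3 for each group without stating how many animals went into an array, so the p-values measure the spread between these arrays. The rabbits' age is not given. The question was which transcripts differ when flow is raised. In such bulk samples fewer cells of a type and less RNA per cell cannot be told apart.

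Matrix metalloproteinases are zinc enzymes that are secreted or held at the cell surface as inactive proforms and, once cleaved, cut collagens, elastin, gelatin and other matrix proteins. TIMPs bind the active site and block it, and proteases and inhibitors together set how fast an arterial wall is taken apart and rebuilt. TIMP2 and MMP14 together also act in the activation of pro-MMP2, and TIMP3 is held in the matrix itself.

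The probes through which the results were read are 60 bases long, and the sequences below come from the array files. The first group is shown because each is the only probe, or the only bright probe, behind its gene.
TIMP1: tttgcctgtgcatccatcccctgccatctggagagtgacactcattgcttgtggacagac
TIMP3: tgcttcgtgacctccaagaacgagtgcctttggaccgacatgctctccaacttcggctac
TIMP4: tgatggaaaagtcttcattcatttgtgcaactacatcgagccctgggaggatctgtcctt
MMP9: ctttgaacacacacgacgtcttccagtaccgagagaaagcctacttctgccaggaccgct
MMP3: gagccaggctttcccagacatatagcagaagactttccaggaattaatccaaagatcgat
MMP12: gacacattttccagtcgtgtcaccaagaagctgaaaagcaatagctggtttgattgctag
On oryCun2, the build of the array files, they lie at chrX:32658284-32658343 (TIMP1), chr4:88311903-88311962 (TIMP3), chr9:11772832-11772891 (TIMP4), chr1:113723191-113723250 (MMP3) and chr1:113701478-113701537 (MMP12). The files give no position for the MMP9 probe.

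Of the 5 MMP14 probes and the first 5 MMP2 probes, the first and last are shown because they are copies of 1 target moved along by a few bases, so they are not separate readings of the gene. Capitals mark the 56 bases that the MMP14 pair shares and the 46 bases that the MMP2 pair shares.
MMP14 first probe: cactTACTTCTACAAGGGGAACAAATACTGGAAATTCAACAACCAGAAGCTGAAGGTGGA
MMP14 last probe: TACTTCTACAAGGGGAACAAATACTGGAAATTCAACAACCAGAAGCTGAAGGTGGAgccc
MMP2 first probe: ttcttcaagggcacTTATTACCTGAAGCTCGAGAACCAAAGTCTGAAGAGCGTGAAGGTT
MMP2 last overlapping probe: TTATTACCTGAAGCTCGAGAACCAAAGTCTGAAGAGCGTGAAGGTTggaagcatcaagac
The first probes lie at chr17:43085061-43085120 (MMP14) and chr5:11742596-11742655 (MMP2). A further MMP2 probe begins 540 bases downstream of the last overlapping one on the transcript.

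Before any result, the arrays themselves did not fall cleanly by group. Slide 1 carried the sham group and slide 2 the ligated group, and the effects of slide and surgery cannot be told apart. Over the tested probes, sham 2 and sham 3 were the closest arrays, with an SD of their difference of 0.38 in log2. Sham 1 was nearer to ligated 2 (0.92) and ligated 1 (1.05) than to sham 2 or sham 3 (both 1.28). Red cell transcripts (HBA, HBB2 and ALAS2, summed and scaled) ran from 7.56 to 8.60 in sham and were at 4.83, 4.97 and 9.38 in ligated arteries. Of 43603 probes, 58.7% to 63.7% were well above background on an array. All 7 smooth muscle markers tested were well above background on all 6 arrays. The desmin gene DES and the smoothelin gene SMTN fell, and the other 5 did not pass the test, where 2.68% of named genes fell. All 7 had a lower mean in ligated arteries, and 5 of the 7 had an unadjusted p under 0.05 in limma. Of all 27410 tested probes, 7498 had such a p.

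Transcripts of inhibitors TIMP1 and TIMP3 and of gelatinases MMP2 and MMP9 rose in ligated arteries, and none of the members fell past the threshold. Values are log2 signals after subtraction of the 75th percentile of the array, changes are ligated minus sham with the standard error of the limma fit, and the threshold is a Benjamini-Hochberg adjusted p of 0.05 over all 27410 tested probes. Testing required a spot well above background on 3 or more of the 6 arrays. On the brightest tested probe of each gene, 4 of 8 tested members rose and 0 fell, where 8.89% of 7572 named genes passed, 6.21% higher and 2.68% lower. The groups did not overlap for 5 of the 8, against 35.5% of named genes. By probe, 9 of 17 tested member probes passed, all higher, against 8.35% of all tested probes (5.71% higher, 2.65% lower), and 6 of the 9 belong to MMP2. The groups did not overlap on 11 of the 17, against 34.7% of all tested probes. The calls depended on single arrays. Without sham 2 the limma fit called 0 of the 8 members (6 at an unadjusted p under 0.05, and 5472 of all tested probes). Leaving out sham 3 also gave 0 (5 at that level, and 5124 of all tested probes). It called 1 member, TIMP1, without ligated 2, and 5 without ligated 3. With normexp background correction, a model-based one, it called 0 (0 at that level, and 615 of all tested probes). With spots of very high local background left out before normexp, it called the same 4 as the main fit (6 at that level, and 7226 of all tested probes). With sham 2 and sham 3 averaged it called 0 (5 at that level, and 5338 of all tested probes), and with median centring 2, MMP9 and TIMP1.

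**Figure D1:**
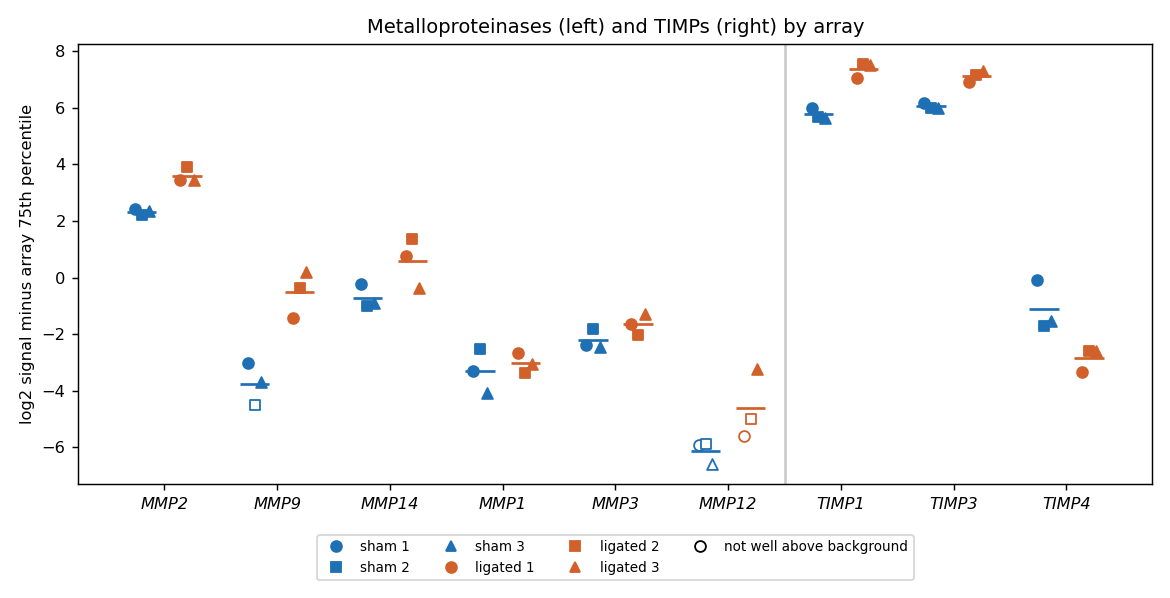
Scaled log2 signal of the probe that stands for each gene (MMP12 on its only probe) on each of the 3 sham and 3 ligated arrays, with a bar at each group mean and open symbols where the spot was not well above background. Heights can be compared between arrays within a gene and not between genes. TIMP1, TIMP3, MMP2 and MMP9 are higher on every ligated array than on every sham array, and TIMP4 is lower on every ligated array.

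Among the inhibitors, TIMP1, a secreted inhibitor of most metalloproteinases, had the smallest adjusted p of the set. Its log2 signal was 6.0, 5.68 and 5.65 in sham and 7.07, 7.55 and 7.52 in ligated arteries. Every ligated array was above every sham array, by more than the spread within either group. The change was 1.61 ± 0.22 (SE, n = 3 arrays per group), or 3.04-fold, with an adjusted p of 0.0108 (limma). The adjusted p ran from 0.0174 to 0.0613 when single arrays were left out, and missed the threshold without sham 2 or sham 3.

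TIMP3, the inhibitor bound to the extracellular matrix, read 6.16, 6.0 and 6.01 in sham and 6.93, 7.15 and 7.29 in ligated arteries. The sham values were close together, and every ligated array was above them. Its change was 1.06 ± 0.19 (SE, n = 3 arrays per group), or 2.09-fold, with an adjusted p of 0.0221 (limma). This call ended without sham 2, sham 3 or ligated 2, where the adjusted p reached 0.108.

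TIMP4, an inhibitor known for its high level in heart and vascular tissue, went the other way without passing the test. It read -0.09, -1.73 and -1.52 in sham and -3.34, -2.58 and -2.60 in ligated arteries. All ligated values lay below all sham values, and sham 1 stood well above the other sham arrays. The log2 change was -1.73 ± 0.47 (SE, n = 3 arrays per group), with an adjusted p of 0.0734 (limma). Over single arrays left out the change ran from -2.03 to -1.22, and the adjusted p from 0.0653 to 0.194. With normexp it was -0.16, and -0.73 when spots of very high local background were first left out.

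The balance between inhibitors was followed within each array, where scaling by a single value cancels. Relative to the sham mean, the log2 ratio of TIMP1 to TIMP3 was 0.12, -0.04 and -0.08 in sham and 0.43, 0.69 and 0.52 in ligated arteries, a change of 0.54. That of TIMP1 to TIMP4 was -0.80, 0.52 and 0.28 in sham and 3.52, 3.24 and 3.24 in ligated arteries, a change of 3.33. Neither ratio overlapped between groups, and the exact two-sided permutation test gave p = 0.1 for each, the smallest that 3 against 3 arrays allow. With normexp, TIMP1 changed by 1.49 and TIMP4 by -0.16, so the shift of TIMP1 to TIMP4 was smaller there than 3.33.

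Among the proteases, MMP9 (gelatinase B, which cuts denatured collagen and basement membrane collagen and is stored by neutrophils) had a larger change than the other tested members on the probes that stand for them. That order was lost with normexp background correction (1.02, against 1.49 for TIMP1). It was also lost with spots of very high local background left out before normexp (1.51, against 1.55 for TIMP1). The log2 signal of MMP9 was -3.03, -4.51 and -3.70 in sham and -1.41, -0.35 and 0.19 in ligated arteries. The groups did not overlap, but the sham values were dim, since the spot was well above background on sham 1 and sham 3 and not on sham 2. The change was 3.22 ± 0.52 (SE, n = 3 arrays per group), with an adjusted p of 0.0174 (limma). The size was uncertain. With normexp background correction it was 1.02 and was not called (adjusted p = 0.789, limma), and with spots of very high local background first left out it was 1.51 (adjusted p = 0.0181, limma). The call also ended without sham 2, sham 3 or ligated 2, with an adjusted p of up to 0.0731.

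Markers of leukocytes were read on the same arrays. Of 6 neutrophil markers tested, 2 had an unadjusted p under 0.05 in limma, as had 7498 of all 27410 tested probes. None of the 6 passed the adjusted threshold, against 8.89% of named genes. Their median change was 0.28, and their summed log2 signal ran from 0.67 to 2.06 in sham and from 1.5 to 2.91 in ligated arteries. Named after their values were seen, the calprotectin gene S100A9 had a log2 change of 1.80 (adjusted p = 0.101, limma) and its partner S100A8 one of -0.60 (adjusted p = 0.741, limma). The neutrophil sum and MMP9 were both highest on sham 1 among the sham arrays and on ligated 3 among the ligated arrays. The markers did not share the sham 1 peak. Among the sham arrays, S100A8 (0.85), S100A9 (0.83) and the dim CAMP (-3.38) were highest on sham 1. MPO (-3.54), CXCR2 (-2.52) and FPR1 (-2.04) were lowest there. The part of neutrophil RNA in the MMP9 change was not tested.

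MMP2 (gelatinase A, made by mesenchymal cells including smooth muscle) rose on all 6 of its probes. The downstream probe, the brightest, read 2.41, 2.20 and 2.35 in sham and 3.44, 3.92 and 3.46 in ligated arteries. Its sham arrays were tight and its ligated arrays all stood well above them. Its change was 1.29 ± 0.21 (SE, n = 3 arrays per group), with an adjusted p of 0.0177 (limma). That call ended without sham 2, sham 3 or ligated 2, with an adjusted p of up to 0.0892. It also ended with normexp (adjusted p = 0.789), with median centring (0.0511) and with sham 2 and sham 3 averaged (0.0821), all in limma. With spots of very high local background left out before normexp the call held (adjusted p = 0.0117, limma). The 5 overlapping probes, whose ends are printed above, gave larger changes, from 2.29 to 2.60, with adjusted p from 0.0253 to 0.0448 (limma).

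The overlapping and the downstream probes differed in where ligated 3 stood among the ligated arrays. The mean of those 5 probes was 0.07, -0.86 and -0.74 in sham and 2.34, 2.52 and 0.85 in ligated arteries. Ligated 3 was the lowest ligated array there by a wide margin, while on the downstream probe it lay level with ligated 1. Only the shift between groups of the difference between probes is read. Taken as overlapping minus downstream, it was -2.34, -3.06 and -3.09 in sham and -1.10, -1.41 and -2.62 in ligated arteries. Ligated 1 and ligated 2 stood above every sham array, and ligated 3 lay among the sham values. Ligated exceeded sham by 1.12, but the groups overlapped (p = 0.2, exact two-sided permutation test). Over 251 other transcripts with probes at least 500 bases apart, the median upstream minus downstream difference, centred for each transcript, was -0.10, -0.05 and -0.10 in sham and 0.29, 0.00 and -0.05 in ligated arteries. Only ligated 1 stood apart in that measure, and its part in the MMP2 values was not tested.

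MMP14 (membrane-type 1 metalloproteinase, an activator of pro-MMP2 and a collagenase at the cell surface) did not pass the test, and ligated 3 was again its lowest ligated array. Its 5 probes averaged -0.38, -1.15 and -1.01 in sham and 0.63, 1.18 and -0.44 in ligated arteries. Ligated 1 and ligated 2 were above every sham array, and ligated 3 lay among the sham values on 4 of the 5 probes. On its brightest probe the change was 1.30 ± 0.46 (SE, n = 3 arrays per group), with an adjusted p of 0.133 (limma), and 0 of 5 probes passed, although all 5 had an unadjusted p under 0.05. Without ligated 3 the change was 1.77 with an adjusted p of 0.0376 (limma), and without ligated 2 it was 0.91.

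**Figure D2:**
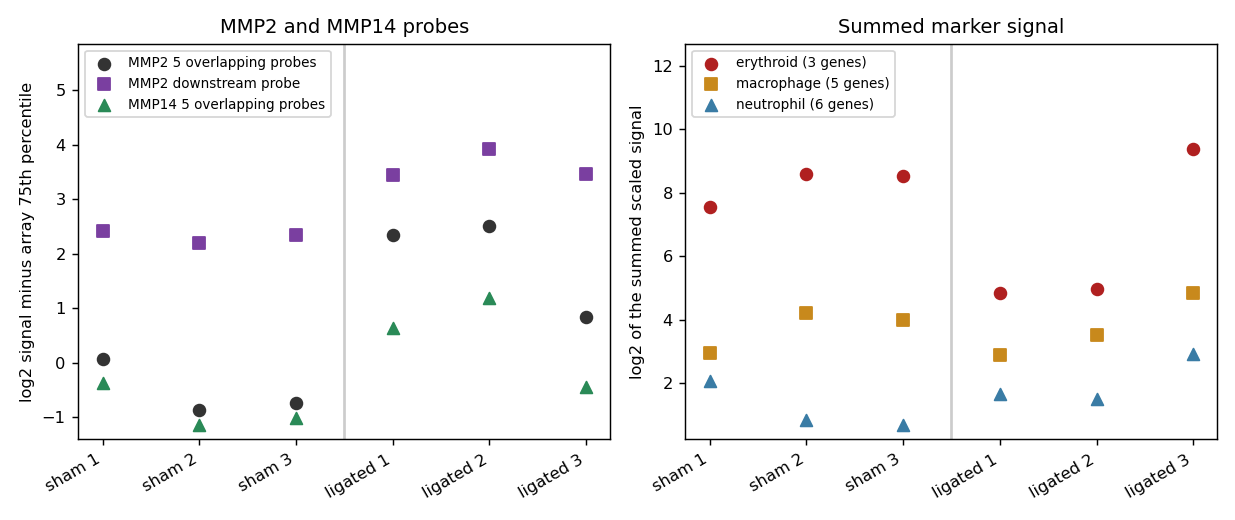
Left, scaled log2 signal by array for the mean of the 5 overlapping MMP2 probes, the downstream MMP2 probe and the mean of the 5 MMP14 probes. Right, log2 of the summed scaled signal of erythroid, macrophage and neutrophil markers by array. On ligated 3 the overlapping MMP2 probes (0.85) and MMP14 (-0.44) are lower than on the other ligated arrays, and the erythroid sum (9.38) is higher.

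Ligated 3 was also the array richest in blood transcripts. With the erythroid sum of each array as a covariate, a setting chosen after the data were seen, the calls of MMP2 (adjusted p = 0.0497), MMP9 (0.0346), TIMP1 (0.0298) and TIMP3 (0.0398) held in limma. The MMP14 change fell to 0.69 (adjusted p = 0.226) in that fit and the TIMP4 change was -1.72 (adjusted p = 0.161).

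MMP1, the interstitial collagenase that opens fibrillar collagen, was read on 1 of its 3 probes. The 3 probes are shown because each outer probe shares 30 bases, in capitals, with the middle one.
MMP1 first probe: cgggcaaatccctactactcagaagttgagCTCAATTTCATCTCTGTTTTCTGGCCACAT
MMP1 middle probe: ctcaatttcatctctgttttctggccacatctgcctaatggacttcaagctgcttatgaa
MMP1 last probe: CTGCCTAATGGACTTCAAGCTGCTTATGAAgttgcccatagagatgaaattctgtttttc
The middle probe, at chr1:113751863-113751922, was well above background on all 6 arrays, while both outer probes were not well above background on any. Every base of the middle probe is thus also held by a neighbour that gave no such signal, and whether the middle probe reads MMP1 transcript was not tested. Its log2 signal was -3.31, -2.51 and -4.08 in sham and -2.67, -3.37 and -3.07 in ligated arteries, and the groups overlapped. The change was 0.27 ± 0.42 (SE, n = 3 arrays per group), with an adjusted p of 0.708 (limma). It turned to -0.02 with quantile normalization and to -0.12 without sham 3.

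MMP3 (stromelysin 1, which cuts proteoglycans and other matrix proteins and activates other proforms) gave a like picture, with 1 of 3 probes read. Its first probe read -2.37, -1.82 and -2.46 in sham and -1.64, -2.03 and -1.30 in ligated arteries, and the other 2 were not well above background on any array. The values overlapped between groups on sham 2 and ligated 2. The change was 0.56 ± 0.28 (SE, n = 3 arrays per group), with an adjusted p of 0.246 (limma).

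MMP12, the macrophage elastase, was not tested, since its only probe was well above background on 1 of the 6 arrays, ligated 3. It read -5.93, -5.89 and -6.59 in sham and -5.59, -5.01 and -3.23 in ligated arteries. No fold is given, because the sham level is only bounded from above. Of 5 macrophage markers tested, 1 had an unadjusted p under 0.05 in limma, as had 7498 of all 27410 tested probes. None of the 5 passed the adjusted threshold, against 8.89% of named genes. The median change of these markers was 0.28. Their summed log2 signal ran from 2.94 to 4.22 in sham and from 2.88 to 4.85 in ligated arteries, and it was highest on ligated 3, the array on which MMP12 was read. The part of macrophage RNA in the MMP12 reading was not tested.

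**Figure D3:**
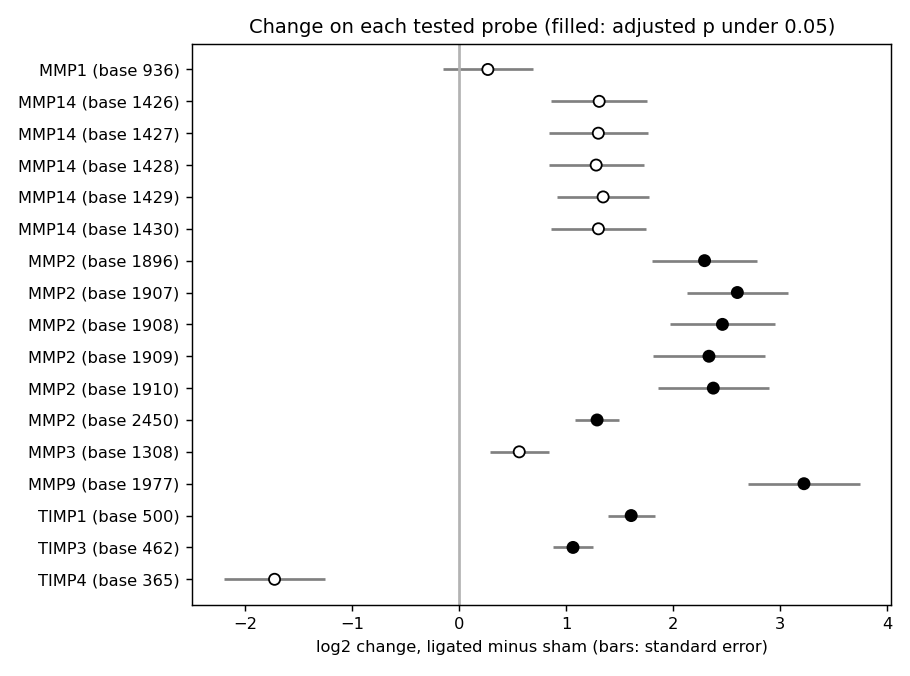
Log2 change (ligated minus sham) on each of the 17 tested member probes, with bars of 1 standard error of the fit and filled symbols where the adjusted p was under 0.05. Labels give the gene and the first base of the probe on its transcript. The 6 MMP2 probes, MMP9, TIMP1 and TIMP3 are filled, with changes from 1.06 (TIMP3) to 3.22 (MMP9).

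The balance of protease and inhibitor was compared as the log2 ratio of each of 5 proteases to each of 3 inhibitors on the same array, relative to its sham mean. The level of such a ratio depends on the probes, so only its shift between groups is read. Of the 15 ratios, 10 did not overlap between groups, 6 of them higher in ligated arteries. Of all tested probes, each read alone, 34.7% did not overlap, and the share over ratios of other genes was not computed. TIMP1, TIMP3 and TIMP4 each had no overlap of their own, which carries into their ratios. The exact permutation test cannot go below 0.1 with 3 arrays against 3, so no ratio could pass a threshold of 0.05. Since all 15 share 8 transcripts, they are not separate results.

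Against TIMP4, whose own values were lower in ligated arteries, every protease ratio had a higher mean. That of MMP9 to TIMP4 was -0.30, -0.15 and 0.45 in sham and 4.56, 4.86 and 5.43 in ligated arteries. The ligated arrays were far from the sham arrays, and the shift of 4.95 ± 0.34 (SE) exceeded those of the other 14 (p = 0.1, exact permutation test, two-sided). With normexp it was 1.18, still without overlap and no longer above MMP2 to TIMP4, and its MMP9 sham level includes sham 2, where the spot was not well above background. MMP2 to TIMP4 shifted by 3.01 ± 0.51 and MMP14 to TIMP4 by 3.03 ± 0.65, also without overlap, but with normexp they were 1.22 and 0.83 and overlapped. MMP3 to TIMP4, on the uncertain single MMP3 probe, shifted by 2.29 ± 0.72 without overlap. Over 14 settings that shift ran from 0.60, with normexp, to 2.79, without overlap in any. MMP1 to TIMP4 overlapped, with a shift of 1.99 (p = 0.2, exact permutation test).

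Against TIMP1 the proteases split. MMP9 to TIMP1 was 0.50, -0.67 and 0.17 in sham and 1.04, 1.62 and 2.19 in ligated arteries, a shift of 1.61 ± 0.48 (SE; p = 0.1, exact permutation test, two-sided). That direction is not secure, since it was -0.47 with normexp background correction and -0.04 with normexp without the high-background spots, and the groups overlapped under both and with quantile normalization. MMP3 to TIMP1 shifted by -1.05 ± 0.37 and MMP1 to TIMP1 by -1.34 ± 0.58, both without overlap, on the uncertain single probes described above. With normexp both overlapped. MMP14 to TIMP1 shifted by -0.31 ± 0.56 and overlapped (p = 0.9, exact permutation test).

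MMP2 to TIMP1 depended on the MMP2 probe. On the downstream probe it was -0.13, -0.03 and 0.16 in sham and -0.18, -0.17 and -0.60 in ligated arteries. The gap between sham 1 and ligated 2 was small, and the shift was -0.32 ± 0.17 (SE; p = 0.1, exact permutation test, two-sided). With normexp the shift was -0.43 and the groups overlapped. With the mean of the 5 overlapping probes in place of the downstream probe the shift turned to 0.81 and the groups overlapped (p = 0.4, exact permutation test). Against TIMP3, the shift of MMP9 was 2.16 ± 0.53 (SE) without overlap, but with normexp it was 0.05 with overlap, and 0.49 with the high-background spots left out. MMP3 to TIMP3 went the other way, by -0.50 ± 0.30 (SE), without overlap except with normexp. MMP1 (-0.80), MMP2 (0.22) and MMP14 (0.24) overlapped.

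**Figure D4:**
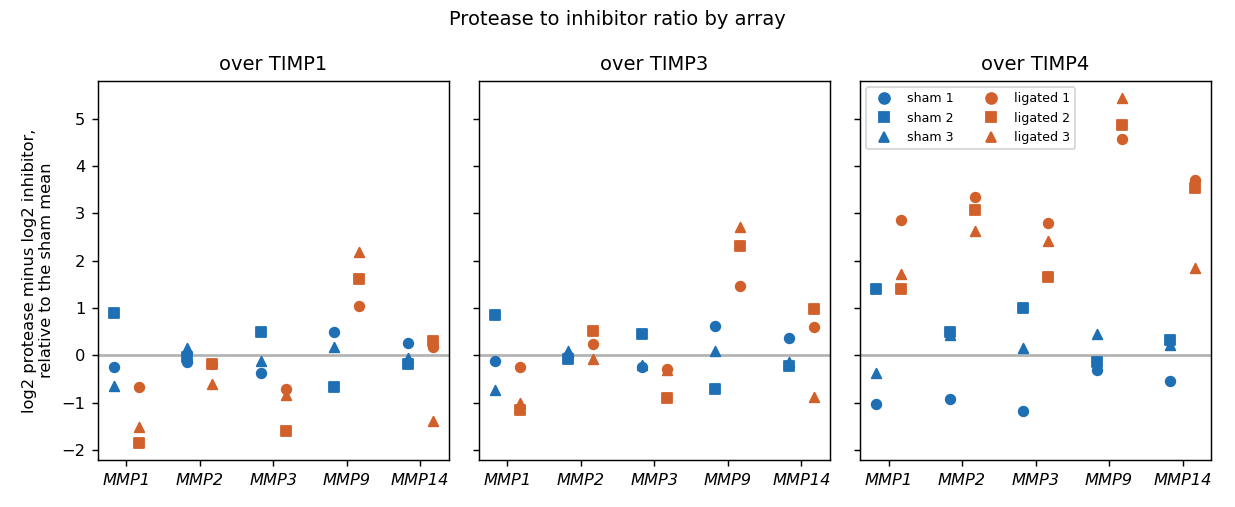
Log2 protease signal minus log2 inhibitor signal on each array, relative to the sham mean, for 5 proteases over TIMP1, TIMP3 and TIMP4, with sham arrays in blue and ligated arrays in orange. Over TIMP4 the ligated arrays lie above the sham mean for every protease. Over TIMP1, MMP9 lies above it, which normexp background correction turned (-0.47), and MMP1 and MMP3 lie below it.

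Other metalloproteinases were mostly dark. Of 17 further genes of the family, 13 had a probe, 5 were tested, 2 rose and 0 fell, against 6.21% and 2.68% of named genes. Their median change was 0.65, where the median of all named genes was 0.01. MMP16 (membrane-type 3, an activator of pro-MMP2) rose by 0.97 ± 0.17 (SE), from -0.30 to 0.67, with an adjusted p of 0.0229 (limma). MMP28 (epilysin) was called with an adjusted p of 0.0444 (limma), but of the sham arrays its spot was well above background only on sham 1, against all 3 ligated arrays, so the size of its change is not given. The 9 family genes with probes on chromosome 1 lie in 1 cluster, chr1:113625980-114012693 on oryCun2, among them MMP1, MMP3 and MMP12. Of their 30 probes, 25 were not well above background on any array, and only 1 probe each of MMP1, MMP3 and MMP8 was read on 3 or more arrays.

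Of 24 genes that activate, hold, inhibit or clear metalloproteinases, 17 had a probe and 13 were tested. Of these, 3 rose and 0 fell, against 6.21% and 2.68% of named genes, with a median change of 0.78. THBS2 (thrombospondin 2, a matricellular protein that binds MMP2 and carries it to its clearance receptor) rose by 2.12 ± 0.27 (SE), with an adjusted p of 0.00915 (limma). PCOLCE (an enhancer of procollagen processing) rose by 2.09 ± 0.28 (SE), with an adjusted p of 0.00996 (limma). CD44 (a hyaluronan receptor that can dock MMP9 and MMP14 at the surface) rose by 1.41 ± 0.32 (SE), with an adjusted p of 0.0467 (limma). RECK, a membrane-anchored inhibitor named here after its values were seen, had a change of 0.78 (adjusted p = 0.363, limma).

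Of 23 cytokines and transcription factors known to induce metalloproteinase genes, 17 had a probe and 16 were tested. Of these, 5 rose and 0 fell, against 6.21% and 2.68% of named genes, with a median change of 0.69. The genes that rose were all cytokines, IL6 (1.73) among them, and no transcription factor passed. FOS (-0.95), SP1 (-0.61), JUN (-0.31), EGR1 (-0.28) and ETS1 (-0.05) had lower means in ligated arteries, and FOSL2 a higher one (0.09). LIF rose by 2.66 and CXCL8 by 2.57 in log2. IL1A and IL1B, the interleukin 1 genes, which induce MMP9 and MMP3 in many cells, rose by 2.46 ± 0.37 and 1.84 ± 0.29 (SE), with adjusted p of 0.0140 and 0.0168 (limma). Over these 3 lists 10 genes were called, of 19 at an unadjusted p under 0.05. Of all 27410 tested probes, 2290 were called, of 7498 at that level. The number of list genes called was 5 without sham 2, 3 without sham 3, 6 without ligated 1 and 4 without ligated 2.

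Markers of other cells were read beside TIMP1 and MMP2. Of 5 fibroblast and meningeal markers tested, 2 rose (LUM and FAP) and 0 fell, where 8.89% of named genes passed. DCN (0.36, adjusted p = 0.325), CD34 (1.04, adjusted p = 0.174) and DPT (1.97, adjusted p = 0.178) did not pass in limma. The median change of the 5 was 1.97, and their summed log2 signal ran from 6.47 to 6.74 in sham and from 7.22 to 7.68 in ligated arteries. The smooth muscle sum ran from 9.53 to 10.37 in sham and from 8.14 to 9.37 in ligated arteries, with a median change of -1.11. Endothelial (4 tested), lymphocyte (4 tested) and erythroid (3 tested) markers had median changes of 0.27, -0.27 and -1.88. They held 0 genes that passed in limma. They also held 0 at an unadjusted p under 0.05, a level that 7498 of 27410 tested probes reached. The part of these cells in the TIMP1 and MMP2 changes was not tested.

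By distance between profiles over the 6 arrays, each centred on its own mean, the named genes closest to TIMP1 among 7562 were PLTP, a phospholipid transfer protein (0.25 in log2), ERG28, a protein of sterol synthesis (0.26), and VASH1, a secreted angiogenesis inhibitor (0.27). Their own changes were 1.74, 1.53 and 1.76.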

How the data were processed

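Total RNA of 6 arrays (3 sham, 3 ligated) was labelled with Cy3, per the labels, and the submitters' processing notes name Agilent Feature Extraction 10.7 as the scan reader. The deposited processed signal is an intensity, background-subtracted and detrended within each array and not scaled between arrays, per the file headers. The spot mean and local background are raw intensity values, per the file headers, and the spot marks are 0 or 1. The deposited value table holds log2 values with nearly equal quantiles, by a step not given in the sources used here. Each column has a median of 5.05 and the same ranks as the scanner signals of its array, so within an array a higher value there means a higher scanner signal. The ranks do not fix the sign of a change between arrays. MMP1 changed by 0.27 from the scanner signals and by -0.0178 in the deposited values.

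Spots marked as outliers (2 to 19 per array) were left out, repeated spots averaged in log2, and the 75th percentile of each array subtracted (signals of 157 to 251). Probes well above background on at least 3 arrays (27410 of 43603) were fitted with limma 3.58.1 in R 4.3.3 and adjusted by Benjamini-Hochberg, with 4 residual degrees of freedom. The code was tested on simulated data. The brightest tested probe stands for a gene. Symbols came from the files and RefSeq's gene table for mOryCun1.1, from which only names were taken (22615 probes with a symbol). All members are described, with up to 4 passing genes per list by smallest p. Members and lists were chosen with earlier results of these data known. Red-cell, leukocyte, fibroblast, endothelial and smooth muscle markers are in the report. Alternatives are in the closing section. The number of arrays limits the precision.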

Additional observations from a re-analysis of the deposited data

How the results depend on the processing

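Of the 8 members tested, 7 kept their direction under each alternative that gave a value (MMP9 had none over probes above background on all 6 arrays). MMP1 was 0.27 and turned to -0.0174 with quantile normalization, -0.0178 in the deposited value table and -0.12 with scan day as a block. With normexp background correction limma called 0 of all tested probes (615 had an unadjusted p under 0.05), 0 member probes (5 did), 0 member genes (0 did) and 0 list genes (6 did), and the changes were 1.06 for MMP2, 1.02 for MMP9, 1.49 for TIMP1 and 0.97 for TIMP3, with 2 of 15 ratios not overlapping. The median over all tested probes was 0.01, and it became 0.21 with that correction, -0.19 with median centring and 0.17 with no filter on dim probes. With 41 spots of very high local background left out before normexp, limma called 2381 probes, 9 member probes, 4 member genes and 10 list genes. In that setting 11 of 15 ratios did not overlap. With median centring 5 member probes and 2 member genes (MMP9 and TIMP1) passed, while MMP2 (1.09) and TIMP3 (0.86) no longer did. With no filter on dim probes 1524 probes and 5 member probes passed. With array weights 5980 probes, 15 member probes and 17 list genes passed, and MMP14 (1.73) and TIMP4 (-1.27) were called, TIMP4 also over probes above background on all 6 arrays (-1.73). With scan day as a block, which equals leaving out sham 3, 552 probes, 0 member probes, 0 member genes and 3 list genes passed. At an unadjusted p under 0.05 in limma were 10 member probes, 5 member genes and 5124 of all tested probes. The changes were 1.30 for MMP2, 3.24 for MMP9, 1.54 for TIMP1 and 1.04 for TIMP3. With sham 2 and sham 3 averaged the counts were 595, 0, 0 and 4, and the changes 1.26, 3.04, 1.55 and 1.04. Under 0.05 unadjusted were 10 member probes, 5 member genes and 5338 of all tested probes. Leaving out 1 array gave 552 to 2269 probes, 0 to 14 member probes, 0 to 5 member genes, 3 to 10 list genes and 10 to 12 ratios without overlap. The changes then ran from -0.12 to 0.66 (MMP1), 1.13 to 1.37 (MMP2), 0.38 to 0.76 (MMP3), 2.84 to 3.66 (MMP9), 0.91 to 1.77 (MMP14), 1.52 to 1.76 (TIMP1), 0.98 to 1.16 (TIMP3) and -2.03 to -1.22 (TIMP4). Replicate numbers did not pair the arrays, since same-numbered deviations correlated at 0.43, -0.57 and 0.58. With the replicate block 1295 probes and 2 member genes passed, MMP2 (1.29) and TIMP3 (1.06) not among them. Beyond leaving those 41 spots out before normexp, why the counts moved was not tested. Dim signals limit what can be read of MMP1, MMP3, MMP9, MMP12 and TIMP4.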
